A study of Mus musculus with 2 samples.

Results

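The glycolysis enzymes and glucose transporters described here are 10 genes of the 31053 in the deposited matrices, chosen by name for their roles: *Slc2a1*, *Slc2a3*, *Hk2*, *Pfkp*, *Aldoa*, *Gapdh*, *Pgk1*, *Eno1*, *Pkm* and *Ldha*. All 10 were found in both matrices. The study profiled single cells of the parental E14 line of mouse embryonic stem cells (mESCs; WT, wild-type) and of E14 cells labelled *Smad1/5* double knockout (S1/5 dKO), made with CRISPR-Cas9. There was 1 library per genotype, both from feeder-free cells in SL, a medium with serum and LIF, the cytokine that holds mESCs in self-renewal. Which S1/5 dKO line was used is not given in the labels, and a line of this kind can carry differences from its parent other than the targeted genes. Transcripts were captured near their 3′ end with the Chromium v3 kit and counted through unique molecular identifiers (UMIs).

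Barcodes were taken as cells if they had 1000 or more detected genes and 5% or less of their UMIs on mitochondrially encoded (mt-) genes. This gave 2236 WT cells with 95965242 UMIs (median 38662 per cell, range 2230 to 198658) and 2910 cells labelled S1/5 dKO with 109020533 UMIs (median 34548.5, range 1485 to 151083). No barcode was kept in both libraries (0 shared). Levels are UMIs summed over the cells of a library and scaled by its total to CPM. With 1 library per genotype, no test between the genotypes was made. Intervals are exact 95% intervals (Poisson for levels, Clopper-Pearson for ratios and shares), which cover counting error only and say nothing of the spread between cultures.

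The cells carried the transcripts of naïve mESCs. *Pou5f1* had 1316 CPM in WT and 1292 CPM in the S1/5 dKO-labelled library, *Zfp42* had 847 and 875 CPM, and *Nanog* had 138 and 142 CPM. Of the 10 naïve markers listed, 8 had a log2 ratio, S1/5 dKO over WT, above 0 and 2 below. They ran from −0.08 (*Klf2*) to 0.25 (*Tbx3*), and 0 were at least 1.2-fold apart. Genes of other cell types were near 0: the 6 fibroblast markers summed to 0.802 and 1.05 CPM, with *Col3a1* and *Lum* at 0 UMIs in both libraries, and *Thy1* the most abundant of them. The 6 endoderm markers summed to 2.14 and 2.27 CPM. Of the 3 with at least 50 UMIs, 1 was at least 1.2-fold higher on the side of S1/5 dKO and 1 lower. These were *Gata6*, with 68 and 120 UMIs (log2 ratio 0.64, 0.19 to 1.09), and *Sox17*, with 37 and 29 UMIs (−0.54, −1.29 to 0.21). The 6 markers of formative and primed cells were low but present, with a sum of 49.8 and 52.5 CPM, of which *Dnmt3b* gave 28.5 and 29.4, *Pou3f1* 14.3 and 16.3 and *Fgf5* 4 and 2 UMIs. *Sox3* alone of those with at least 50 UMIs was 1.2-fold apart, with 235 and 166 UMIs (log2 ratio −0.69, −0.98 to −0.39). Of all genes with at least 50 UMIs, 9.13% were at least 1.2-fold higher on the side of S1/5 dKO and 11.4% lower. The marker lists are too short for their counts to be set apart from these shares.

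The levels of the targeted genes come first. *Smad1* (ENSMUSG00000031681; chromosome 8, 79338395 to 79399518 in GRCm38) had 1285 UMIs in WT (13.4 CPM, 12.7 to 14.1) and 1000 UMIs (9.17 CPM, 8.61 to 9.76) in the S1/5 dKO-labelled library. *Smad5* (ENSMUSG00000021540, chromosome 13, 56703010 to 56742377) had 581 UMIs in WT (6.05 CPM, 5.57 to 6.57) and 991 UMIs (9.09 CPM, 8.53 to 9.67) in that library. The log2 ratio, S1/5 dKO over WT, was −0.55 for *Smad1* (−0.67 to −0.43) and 0.59 for *Smad5* (0.44 to 0.74). *Smad5* mRNA was therefore higher in the library whose label says it was knocked out. A 3′ tag does not show whether the coding sequence upstream was disrupted, so these levels do not check the label. Of 5 textbook targets of SMAD1/5 signalling, looked up after the other results were known, *Id1* (−1.01, −1.03 to −0.98), *Id2* (−1.76, −1.84 to −1.69), *Id3* (−0.75, −0.79 to −0.70) and *Smad6* (−0.67, −1.001 to −0.33) were lower in the library labelled S1/5 dKO, the direction of the label, and *Smad7* was near 0 (−0.05, −0.099 to −0.0063). The library is named here by its label.

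Glycolysis splits glucose into pyruvate in the cytosol. Facilitative transporters bring glucose in, hexokinase and phosphofructokinase commit it to the pathway, the enzymes from aldolase to pyruvate kinase harvest ATP and NADH, and lactate dehydrogenase turns pyruvate into lactate and regenerates NAD+. Pluripotent stem cells are known for a high glycolytic flux in the presence of oxygen, and several genes of the pathway are textbook targets of the hypoxia-inducible factors and of MYC, which bind DNA motifs that can contain the letters ACGTG.

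The promoter table from RefSeq (GRCm38.p6) has entries for 9 of the 10 genes, 15 windows in all, and none was matched for *Slc2a3*. The 250 bases before each transcription start were searched on both strands for ACGTG, whose reverse complement is CACGT. The palindrome CACGTG contains both and counts as 2 matches. Printed here is 1 window for each of the 6 genes with a match, and that of *Gapdh*, the most abundant of the 10, which has no ACGTG. The windows lie at chr4:119108495-119108744 (plus strand) for *Slc2a1*, chr6:82774455-82774704 (minus strand) for *Hk2*, chr7:126799255-126799504 (minus strand) for *Aldoa*, chr6:125165774-125166023 (minus strand) for *Gapdh*, chrX:106186850-106187099 (plus strand) for *Pgk1*, chr9:59656977-59657226 (plus strand) for *Pkm* and chr7:46845554-46845803 (plus strand) for *Ldha*. Each is written 5′ to 3′ on the strand of its gene, and capitals mark the matches.
Slc2a1: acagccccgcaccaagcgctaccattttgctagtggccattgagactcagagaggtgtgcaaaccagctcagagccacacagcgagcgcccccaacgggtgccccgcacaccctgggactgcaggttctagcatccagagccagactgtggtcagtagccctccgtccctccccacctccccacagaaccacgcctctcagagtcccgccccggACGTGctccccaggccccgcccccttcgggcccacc
Hk2: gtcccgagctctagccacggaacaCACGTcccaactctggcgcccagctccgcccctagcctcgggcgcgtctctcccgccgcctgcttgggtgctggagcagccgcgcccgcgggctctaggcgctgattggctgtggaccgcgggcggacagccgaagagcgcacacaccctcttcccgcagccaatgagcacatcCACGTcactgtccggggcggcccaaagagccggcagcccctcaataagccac
Aldoa: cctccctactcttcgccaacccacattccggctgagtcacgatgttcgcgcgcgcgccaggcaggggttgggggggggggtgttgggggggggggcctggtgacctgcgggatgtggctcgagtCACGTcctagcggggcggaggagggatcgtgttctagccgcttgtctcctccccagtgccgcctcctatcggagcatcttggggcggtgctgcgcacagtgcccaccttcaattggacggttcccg
Gapdh: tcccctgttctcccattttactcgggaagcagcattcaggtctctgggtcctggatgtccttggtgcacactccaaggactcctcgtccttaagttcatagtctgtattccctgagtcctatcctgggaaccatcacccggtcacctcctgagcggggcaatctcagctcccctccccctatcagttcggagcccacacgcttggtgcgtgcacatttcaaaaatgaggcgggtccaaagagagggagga
Pgk1: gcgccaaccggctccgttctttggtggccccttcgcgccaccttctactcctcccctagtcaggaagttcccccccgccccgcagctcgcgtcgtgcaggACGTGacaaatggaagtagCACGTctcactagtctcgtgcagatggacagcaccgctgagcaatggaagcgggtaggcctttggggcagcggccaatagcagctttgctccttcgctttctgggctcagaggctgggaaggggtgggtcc
Pkm: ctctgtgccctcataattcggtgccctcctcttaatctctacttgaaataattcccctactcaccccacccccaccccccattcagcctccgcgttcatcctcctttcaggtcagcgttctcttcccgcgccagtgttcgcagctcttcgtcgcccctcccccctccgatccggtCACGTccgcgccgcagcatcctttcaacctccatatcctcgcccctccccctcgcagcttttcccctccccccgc
Ldha: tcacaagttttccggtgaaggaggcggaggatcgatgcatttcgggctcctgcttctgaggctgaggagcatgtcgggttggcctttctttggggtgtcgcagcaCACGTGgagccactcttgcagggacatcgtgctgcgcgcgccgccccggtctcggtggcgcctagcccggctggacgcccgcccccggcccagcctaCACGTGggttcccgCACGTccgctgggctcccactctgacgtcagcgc

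The *Ldha* window held 5 matches, with CACGTG 2 times, and those of *Hk2* and *Pgk1* held 2 each. The printed windows of *Slc2a1*, *Aldoa* and *Pkm* held 1 each, and that of *Gapdh* had 0. *Aldoa*, *Pkm* and *Ldha* each have another window, not printed, with 0 matches. Over all windows of the 9 genes, 7 of 15 held ACGTG (46.7%), at least 1 window of 6 of the 9 genes. These 15 are not independent, since *Aldoa* and *Eno1* each have 3 windows, of which 2 overlap. Of the 32817 windows of all genes in the table, 16.6% held ACGTG, 6.81% held it at least 2 times and 6.02% held CACGTG. The hypoxia-inducible factors also bind GCGTG, which is not marked. It was in 7 of the 15 windows, 2 times in that of *Gapdh*, and in 28.1% of all windows. A match describes these letters in this window and is not a measured binding site.

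The transporters had similar levels. UMI counts from 3′ ends do not scale with transcript length, so that CPM values can be set side by side between genes, apart from differences in capture. *Slc2a1* (ENSMUSG00000028645, chromosome 4, 119108711 to 119137983) encodes GLUT1, the basal glucose transporter of many tissues, and had 122 CPM in WT (120.1 to 124.5) and 121 CPM in the S1/5 dKO-labelled library (119 to 123). *Slc2a3* (ENSMUSG00000003153, chromosome 6, 122727809 to 122801640), which encodes the high-affinity transporter GLUT3, had 114 CPM (112 to 116) and 113 CPM (111 to 115). Together with *Slc2a2* (0 UMIs in both libraries) and *Slc2a4* (29 and 35 UMIs), they make up the UMIs of the glucose transporters counted here, of which *Slc2a1* gave 51.8% in WT (51.1 to 52.4%) and 51.8% in the S1/5 dKO-labelled library (51.2 to 52.4%). GLUT1 and GLUT3 transcripts were thus near balance in these mESCs, and the balance was the same in both libraries to within counting error.

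At the entry steps, levels were lower. *Hk2* (ENSMUSG00000000628, chromosome 6, 82725025 to 82774454), a hexokinase that binds mitochondria and phosphorylates glucose, had 77.3 CPM in WT (75.6 to 79.1) and 87.2 CPM in the S1/5 dKO-labelled library (85.4 to 88.9). It held 87.7% of the hexokinase UMIs in WT (87.0 to 88.4%) and 89.5% in the S1/5 dKO-labelled library (88.9 to 90.1%), nearly all of the rest coming from *Hk1*. *Pfkp* (ENSMUSG00000021196, chromosome 13, 6579768 to 6648777), the platelet-type phosphofructokinase, had the lowest level of the 10, 17.6 CPM (16.8 to 18.5) and 20.3 CPM (19.5 to 21.2). It was not the main phosphofructokinase: *Pfkl*, the liver type, held 61.7% of the phosphofructokinase UMIs in WT and 57.2% in the S1/5 dKO-labelled library, and *Pfkp* held 25.2% (24.2 to 26.3%) and 30.5% (29.4 to 31.6%).

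The enzymes from aldolase onward were among the abundant transcripts. *Aldoa* (ENSMUSG00000030695, chromosome 7, 126795234 to 126800751), which cleaves fructose-1,6-bisphosphate, had 745 CPM in WT (740 to 751) and 699.7 CPM in the S1/5 dKO-labelled library (695 to 705), and held 99.6% and 99.5% of the aldolase UMIs. A second gene model with the same symbol had 14 and 7 UMIs and was left out. *Gapdh* (ENSMUSG00000057666, chromosome 6, 125161715 to 125166467), the dehydrogenase that yields NADH and a common reference gene, had 3714 CPM (3702 to 3726) and 3517 CPM (3506 to 3528), and ranked 43 and 47 among all genes by level. It gave 52.0% and 51.3% of the UMIs of the 10 genes, so that their sum follows *Gapdh* more than any other. *Pgk1* (ENSMUSG00000062070, chromosome X, 106187100 to 106203699), which makes the first ATP of the pathway, had 244 CPM (241 to 247) and 245 CPM (242 to 247).

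*Eno1* (ENSMUSG00000063524, chromosome 4, 150236721 to 150248879), the enolase of most tissues, had 543 CPM in WT (538 to 548) and 495 CPM in the S1/5 dKO-labelled library (491 to 499). It held 90.6% of the enolase UMIs in WT (90.4 to 90.9%) and 88.5% in the S1/5 dKO-labelled library (88.3 to 88.8%). *Eno1b*, a near-identical copy on chromosome 18, had 23.3 and 19.5 CPM, and reads that fit both copies may have been assigned to either or dropped, so both values are uncertain. *Gapdh* and *Pgk1* also have processed copies in the genome. *Pkm* (ENSMUSG00000032294, chromosome 9, 59656368 to 59679375), the pyruvate kinase of muscle and of dividing cells, had 787 CPM (782 to 793) and 791 CPM (785 to 796), and held 99.99% of the pyruvate kinase UMIs in both libraries. Its splice forms PKM1 and PKM2 share their 3′ end and were not told apart.

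*Ldha* (ENSMUSG00000063229, chromosome 7, 46841475 to 46855627), the lactate dehydrogenase subunit that favours lactate formation, had 774 CPM in WT (768 to 779) and 774 CPM in the S1/5 dKO-labelled library (769 to 779). It held 75.8% of the lactate dehydrogenase UMIs in WT (75.5 to 76.1%) and 71.9% in the S1/5 dKO-labelled library (71.7 to 72.2%). The lower share came with a higher level of *Ldhb*, the heart-type subunit, which went from 247 CPM in WT to 302 CPM in the S1/5 dKO-labelled library, and not with a lower level of *Ldha*. By level, the 10 genes stood in the same order in both libraries, with *Gapdh* first, then *Pkm*, *Ldha*, *Aldoa*, *Eno1*, *Pgk1*, *Slc2a1*, *Slc2a3*, *Hk2* and *Pfkp*, and *Gapdh* was 211 times as high as *Pfkp* in WT and 173 times in the other library. No 2 neighbours in this order had overlapping intervals in either library.

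**Figure D1:**
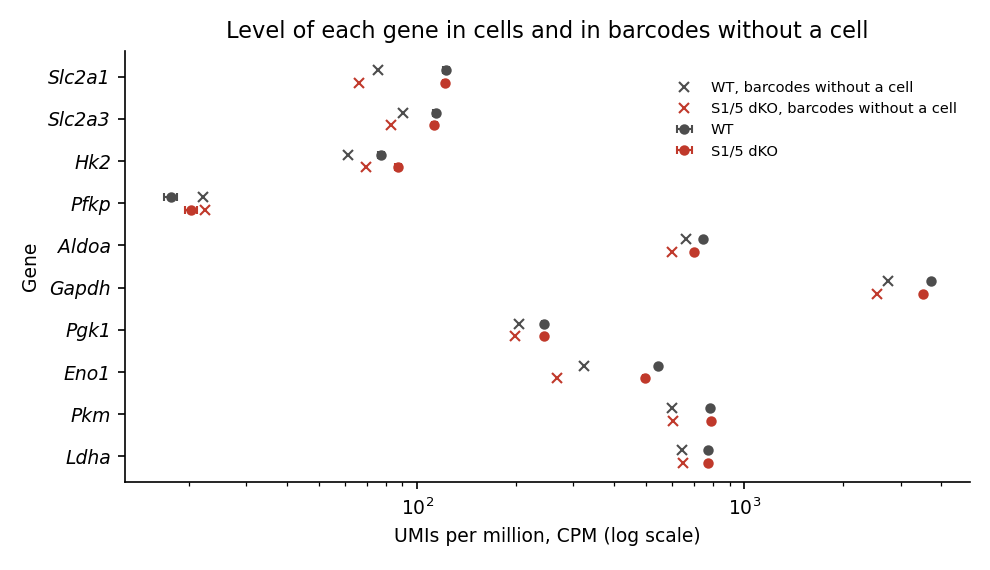
Level of each of the 10 genes in CPM (log scale) in cells of WT (grey points) and of the S1/5 dKO-labelled library (red points), with exact 95% Poisson intervals, and in barcodes with 10 to 100 UMIs, which hold no cell (crosses). Levels run from 17.6 CPM for *Pfkp* to 3714 CPM for *Gapdh* in WT, and the order of the genes is the same in both libraries.

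**Figure D2:**
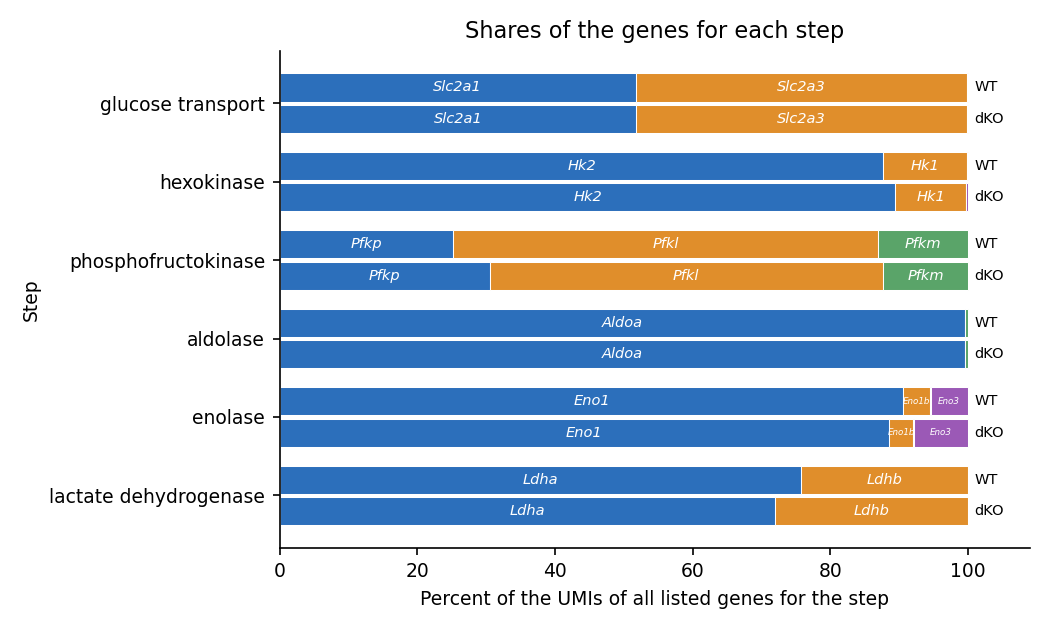
Share of each gene in the UMIs of all genes listed for the same step, in percent, for WT (upper bar of each pair) and the S1/5 dKO-labelled library (lower bar). At 6 steps, *Hk2*, *Aldoa*, *Eno1* and *Ldha* hold most of theirs, *Pfkp* stands below *Pfkl*, and *Slc2a1* and *Slc2a3* share transport.

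Free RNA in the droplets held all 10 genes. Barcodes with 10 to 100 UMIs held 2739.9 and 2534 CPM of *Gapdh*, 324 and 268 CPM of *Eno1* and 76.0 and 66.4 CPM of *Slc2a1*, below the levels in cells, and for *Pfkp* 22.1 and 22.5 CPM, above its level in cells. Such a barcode held few UMIs, however: per barcode, the UMIs of each of the 10 genes came to between 0.0339% (*Eno1*, WT) and 0.0799% (*Pfkp*, library labelled S1/5 dKO) of those per cell. No cell type that lacks these genes was present for comparison.

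Between the libraries, the levels of the 10 genes differed little. The sum of the 10 was 7137 CPM in WT and 6863 CPM in the S1/5 dKO-labelled library, or 0.714% and 0.686% of all UMIs, a log2 ratio of −0.06 (−0.061 to −0.052). Without *Gapdh*, the log2 ratio of the sum was −0.03 (−0.040 to −0.027). The median log2 ratio of the 10 genes was −0.0047, where that of the 13654 genes with 50 or more UMIs in the 2 libraries together was −0.0069. Of the 10 genes, 0 were at least 1.2-fold apart. Of the 13654 genes, 9.13% were higher by 1.2-fold or more on the side of S1/5 dKO and 11.4% lower. Of the 4135 genes with at least 5000 UMIs, which include 9 of the 10, 2.42% were higher and 2.39% lower by that much. A count of 0 in 10 lies near this background and sets the glycolysis genes apart from nothing.

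Within these limits, the ratios did not all point the same way. *Hk2* had a log2 ratio of 0.17 (0.13 to 0.22), a level 1.13 times as high in the S1/5 dKO-labelled library, and *Pfkp* one of 0.20 (0.11 to 0.30), or 1.15 times. The other phosphofructokinases went the other way, *Pfkl* at −0.18 and *Pfkm* at −0.15, and the 3 together had 69.9 CPM in WT and 66.6 CPM in the S1/5 dKO-labelled library. *Eno1* had the lowest ratio, −0.13 (−0.15 to −0.12), followed by *Aldoa* at −0.09 (−0.11 to −0.08) and *Gapdh* at −0.08 (−0.085 to −0.072). These 5 genes kept their direction under all 9 alternative settings tried. Among genes with at least 5000 UMIs, log2 ratios ran from −0.17 at the 5th percentile to 0.19 at the 95th, so that all of these genes but *Pfkp*, which has fewer UMIs, lay inside that range.

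For the other 5 genes the interval of the log2 ratio spanned 0. These were *Slc2a1* (−0.010, −0.046 to 0.026), *Slc2a3* (−0.014, −0.052 to 0.023), *Pgk1* (0.0042, −0.021 to 0.030), *Pkm* (0.0063, −0.0078 to 0.020) and *Ldha* (0.00074, −0.014 to 0.015). Each of them changed sign under at least 1 alternative setting, and no direction is drawn for them. For *Pkm* and *Ldha*, with 74239 UMIs or more in each library, counting error was small, and the spread between cultures is the unknown. *Gapdh* is often taken as the reference in RT-PCR. The ratios of 8 other reference genes ran from −0.32 (*B2m*) to 0.08 (*Ywhaz*), with *Actb* and *Ppia* at −0.03 and *Rplp0* at −0.00013, and *Gapdh* lay below all of them but *B2m*. For *Hprt*, with 31 and 37 UMIs, the interval (−0.66 to 0.81) holds the value of *Gapdh*, so that these 2 cannot be ordered.

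**Figure D3:**
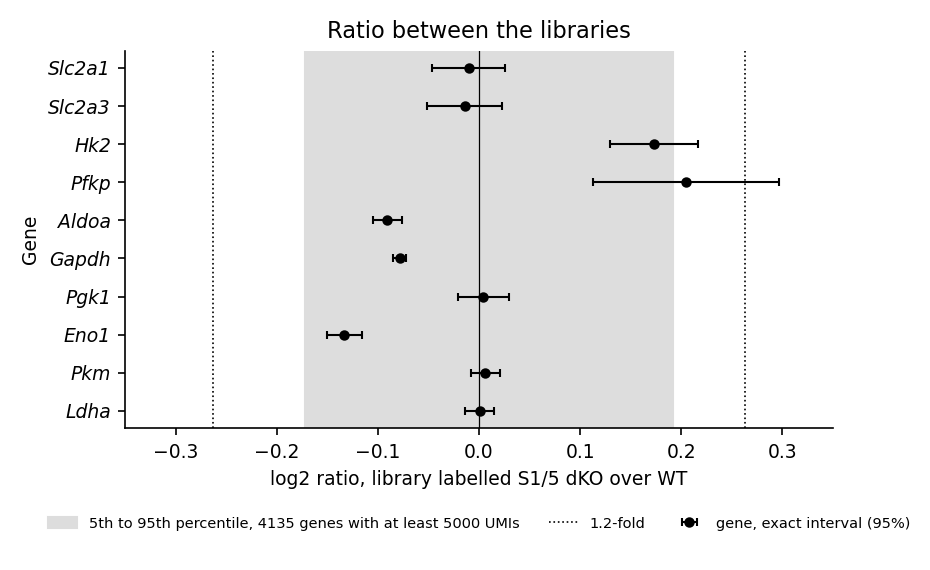
log2 ratio of each gene, library labelled S1/5 dKO over WT (points), with its exact 95% interval (bars), the 5th to 95th percentile over the 4135 genes with at least 5000 UMIs (grey band) and the 1.2-fold limits (dotted lines). *Hk2* and *Pfkp* lie to the right of 0, *Eno1*, *Aldoa* and *Gapdh* to the left and the other 5 at 0, and no point passes 1.2-fold in either direction.

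Cells were next compared within each library. Each cell was thinned to 10000 UMIs, which left out 43 WT cells and 67 cells labelled S1/5 dKO with fewer and kept 2193 and 2843. Of the 10 genes together, the median cell had 70 UMIs in WT (5th to 95th percentile 49 to 93) and 67 UMIs in the S1/5 dKO-labelled library (47 to 90). No cell of either library was without them, and the lowest had 23 and 26 UMIs. *Gapdh* was found in every thinned cell, and *Aldoa*, *Eno1*, *Pkm* and *Ldha* in 98.7% or more of the cells of each library.

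The transporters and entry enzymes were found in fewer cells at this depth. *Slc2a1* was found in 66.5% of thinned WT cells (64.5 to 68.5%) and 64.7% of thinned cells labelled S1/5 dKO (62.9 to 66.4%), and in 94.7% and 92.4% of cells without thinning. *Slc2a3* was found in 64.2% and 63.1% of thinned cells (93.3% and 91.5% without thinning), and *Hk2* in 54.4% and 57.0% (89.9% and 90.03%). *Pfkp* was found in 15.2% of thinned WT cells (13.8 to 16.8%) and 17.8% of thinned cells labelled S1/5 dKO (16.4 to 19.3%), and in 44.5% and 46.3% without thinning. Between these genes the shares followed the level, and each was higher without thinning. Between the libraries they did not always follow the level: *Slc2a1* had a mean of 1.26 UMIs per thinned cell in WT and 1.28 in the S1/5 dKO-labelled library, where its share was lower. A cell without a UMI of *Pfkp* is not a cell without its mRNA.

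The spread between cells was set against genes of like level, those within 1.5-fold of the mean. *Slc2a1* varied more than most. Its Fano factor, the variance of the UMIs over their mean, which is 1 for counting noise alone, was 1.43 in WT and 1.68 in the S1/5 dKO-labelled library, where the median of genes of like level was 1.08 in both. Only 42 of 877 such genes in WT and 23 of 892 in the other library had a higher value. *Slc2a3* had Fano factors of 1.34 and 1.29, with 61 of 929 and 74 of 984 genes above it. *Hk2*, at 1.07 and 1.09, was close to the median of its level (1.06 in both), and 537 of 1205 and 406 of 1121 genes had a higher value.

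Among the abundant enzymes, *Ldha* had Fano factors of 1.64 and 1.69 (median of like level 1.23 and 1.22) and *Gapdh* 2.41 and 2.25 (1.66 and 1.58). *Aldoa*, at 1.51 and 1.57, also stood above most genes of its level, with 35 of 170 and 34 of 185 above it. Free of counting noise, the coefficient of variation was 0.293 and 0.303 for *Ldha*, 0.264 and 0.287 for *Aldoa*, 0.210 and 0.199 for *Pkm*, 0.196 and 0.190 for *Gapdh*, 0.253 and 0.215 for *Pgk1* and 0.262 and 0.243 for *Eno1*. It was higher for *Slc2a1* (0.580 and 0.730), *Slc2a3* (0.540 and 0.511) and *Pfkp* (0.656 and 0.724), and *Hk2* had 0.297 and 0.317. The enzymes from aldolase onward thus varied by a smaller proportion from cell to cell than the transporters and *Pfkp*, whose values rest on few UMIs per cell.

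Covariation over cells was measured as Pearson's r of ln(1 + UMIs) in thinned cells, within each library. Cells of a library share its preparation, and r is given as a description. The 45 pairs of the 10 genes had a median r of 0.023 in WT (−0.12 to 0.20) and 0.028 in the S1/5 dKO-labelled library (−0.086 to 0.18). All pairs of genes with at least 0.5 UMIs per thinned cell had a median of 0.00095 and 0.00072 and a 95th percentile of 0.0504 and 0.0501. *Pfkp* has fewer UMIs than that, and the 36 pairs without it had a median r of 0.0305 and 0.0358. Above the 95th percentile lay 16 of the 45 pairs in WT and 17 in the other library, and 0 pairs reached 0.2.

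The pairs divided along the pathway. All 15 pairs among *Aldoa*, *Gapdh*, *Pgk1*, *Eno1*, *Pkm* and *Ldha* had r above 0 in both libraries, with a median of 0.118 in WT (0.057 to 0.20) and 0.104 in the S1/5 dKO-labelled library (0.030 to 0.18). Of these, 15 in WT and 14 in the other library lay above the 95th percentile of all pairs. The highest were *Aldoa* with *Ldha* (0.198 and 0.178), *Pkm* with *Ldha* (0.186 and 0.141) and *Aldoa* with *Gapdh* (0.171 and 0.166). These enzymes follow one another in the pathway and are also the most abundant of the 10, and r falls with low counts. The percentile was taken over pairs of all genes above the minimum level, not over pairs of genes of like level. *Aldoa*, *Pgk1*, *Pkm* and *Ldha* were also relatively higher in cells with more total UMIs, as given below. Total UMIs were regressed out only for the median r of all pairs of the 10. The part of level and of depth in the r of these enzymes was therefore not tested. The division of the genes was made after the r values were seen.

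The 24 pairs that join 1 of these enzymes with a transporter, *Hk2* or *Pfkp* had a median r of 0.00089 in WT and −0.00019 in the S1/5 dKO-labelled library, and 9 of them were above 0 in both. Those of *Slc2a1* with *Eno1* (0.026 and 0.0903) and with *Ldha* (0.028 and 0.082) were the only 2 above the 95th percentile, in the S1/5 dKO-labelled library alone. *Slc2a3* stood out on the low side. Its r with *Ldha* was −0.118 and −0.078, with *Gapdh* −0.054 and −0.086 and with *Aldoa* −0.064 and −0.047, in each library below the 5th percentile of all pairs (−0.046 and −0.045). *Slc2a1* and *Slc2a3* had r of 0.049 and 0.030 with each other. The largest difference between the libraries was that of *Slc2a1* with *Hk2*, at 0.00071 in WT and 0.081 in the S1/5 dKO-labelled library, and 22 of the 45 pairs were higher in the latter.

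Counting noise lowers r in sparse data. With the noise of a fixed number of UMIs taken off the variances and the covariance, a calculation added after seeing the data, the 15 pairs from *Aldoa* to *Ldha* had a median r of 0.338 in WT (0.199 to 0.614) and 0.363 in the S1/5 dKO-labelled library (0.140 to 0.573). *Pkm* with *Ldha* had 0.614 and 0.430, and *Aldoa* with *Ldha* had 0.482 and 0.443. The 24 pairs of 1 of these enzymes with a transporter, *Hk2* or *Pfkp* spread around 0 on this scale, with a median of −0.013 in WT (−0.37 to 0.18) and −0.014 (−0.27 to 0.31). *Slc2a1* with *Slc2a3* had 0.146 and 0.094. The 6 pairs among the transporters, *Hk2* and *Pfkp* had a median of 0.234 and 0.133, but 5 of them contain *Hk2* or *Pfkp*, whose variance is close to that of counting noise, which makes these values unstable.

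**Figure D4:**
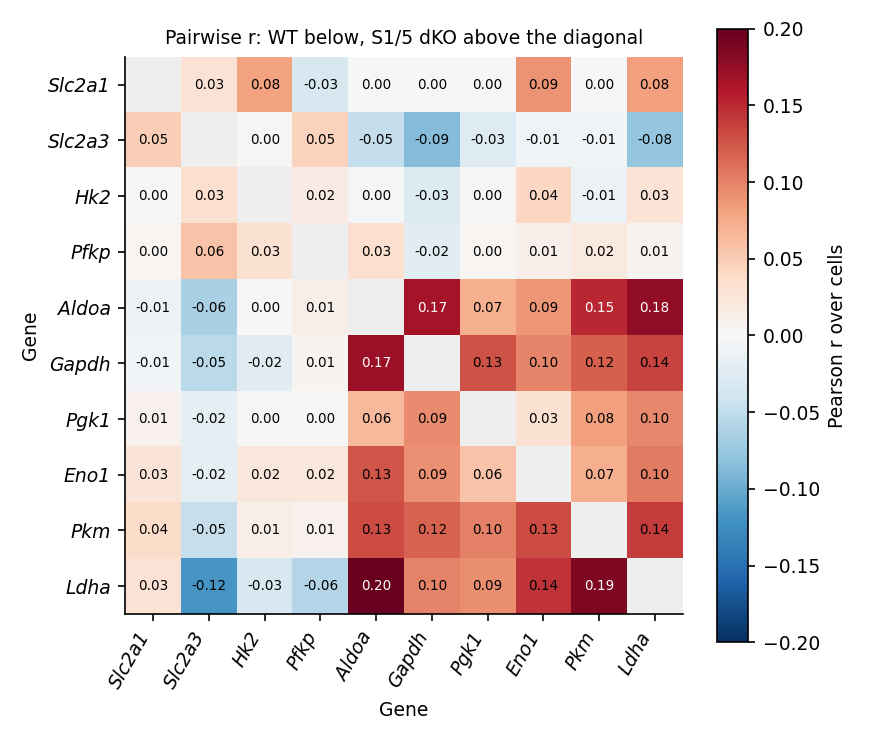
Pearson's r over thinned cells for each pair of the 10 genes, in WT (below the diagonal) and in the S1/5 dKO-labelled library (above it), with red for r above 0 and blue for r below 0. The 15 pairs from *Aldoa* to *Ldha* form a block with r above 0 in both libraries, and *Slc2a3* has r below 0 with *Aldoa*, *Gapdh* and *Ldha*.

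Other genes were ranked by their r with the summed UMIs of the 10 in each thinned cell, each of the 10 being set against the sum of the other 9. Of the 4507 genes with at least 0.2 UMIs per cell in both libraries, the median r outside the 10 was −0.0062 in WT and −0.0091 in the S1/5 dKO-labelled library. *Aldoa* ranked 7 by the mean of the libraries (0.224 and 0.228), *Ldha* 8 (0.194 and 0.219), *Gapdh* 10 (0.187 and 0.217), *Pkm* 11 (0.208 and 0.193), *Eno1* 25 (0.172 and 0.152) and *Pgk1* 37 (0.139 and 0.154). *Slc2a1* ranked 930 (0.015 and 0.041), *Hk2* 2361 (−0.022 and 0.0017) and *Slc2a3* 4377 (−0.095 and −0.089). *Pfkp* fell below the minimum in WT and has no rank. The later enzymes therefore ranked near the top of these genes by r with the rest of the 10, and the transporters did not. The later enzymes are also more abundant. They had from 2.41 (*Pgk1*) to 36.6 (*Gapdh*) UMIs per thinned cell in WT, where *Hk2* had 0.799 and *Slc2a1* 1.26. No ranking among genes of like level was made, so the part of level in these ranks was not tested. The sum of the 10 is mostly *Gapdh*. With the 10 genes weighted equally, r was 0.044 and 0.084 for *Slc2a1*, 0.015 and 0.047 for *Hk2* and −0.049 and −0.043 for *Slc2a3*. *Pgk1*, the lowest of the later enzymes, then had 0.109 and 0.096.

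The 10 genes outside the set with the highest r were *Gsta4*, a glutathione transferase (0.265 and 0.247), *Prdx1*, a peroxiredoxin (0.261 and 0.237), *Ppia* (0.244 and 0.251), *Mif* (0.224 and 0.264), *Eif5a* (0.234 and 0.233), *Rpl7a* (0.233 and 0.225), *Tubb5* (0.212 and 0.194), *Ptma* (0.204 and 0.184), *Rplp0* (0.171 and 0.208) and *Tuba1b* (0.216 and 0.161). With the 10 genes weighted equally, 3 of these 10 stayed among the highest 10, and without *Gapdh* in the sum 4 did, *Gsta4*, *Mif* and *Eif5a* in both cases. The place of *Ppia* rested on *Gapdh*, without which its r was 0.047 and 0.043. The 5 lowest were all mitochondrially encoded: *mt-Co2* (−0.307 and −0.317), *mt-Atp6* (−0.229 and −0.275), *mt-Nd1* (−0.264 and −0.239), *mt-Co3* (−0.237 and −0.253) and *mt-Co1* (−0.247 and −0.199). Cells with a larger share of glycolysis UMIs thus had a smaller share of mitochondrially encoded UMIs in both libraries. Shares of a fixed total compete with each other, and the part of this in the values was not tested.

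The genes of closest pattern were also listed for single genes of the 10. *Ldha* had its highest mean r with *Eif5a* (0.254 and 0.207) and *Npm1*, a nucleolar protein (0.236 and 0.193). For *Pkm* they were *Ldha* (0.186 and 0.141) and *Npm1* (0.165 and 0.141). *Eno1* had *Ncl*, which encodes nucleolin (0.167 and 0.126), and *Set* (0.126 and 0.145). *Aldoa* had *Gsta4* (0.153 and 0.229) and *Ldha*. *Gapdh* had *Ppia* (0.310 and 0.341) and *Rpl10a* (0.262 and 0.262), and *Pgk1* had *Gapdh* (0.094 and 0.127) and *Prdx1* (0.113 and 0.084).

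The transporters had other partners. *Slc2a1* had its highest r with *Fgfbp1*, a carrier protein for fibroblast growth factors (0.119 and 0.144), and *S100a6*, a calcium-binding protein (0.099 and 0.140). *Slc2a3* had *Akap12*, a scaffold protein (0.155 and 0.132), and *Malat1*, a nuclear non-coding RNA (0.147 and 0.124). *Hk2* had *Hnrnpab* (0.122 and 0.069) and *Ranbp2* (0.106 and 0.072), and *Pfkp* had *Spp1* (0.080 and 0.077) and *Srrm2* (0.089 and 0.058). None of the genes closest to a transporter, *Hk2* or *Pfkp* was 1 of the other 9.

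Levels were then compared between ranges of cells, which are not cell types. Cells were ordered by their total UMIs before thinning and cut into 3 ranges of equal size (731 WT cells each). The sum of the 10 genes was 6642 CPM in the low range of WT and 7357 CPM in the high range, and 6430 and 7029 CPM in the S1/5 dKO-labelled library. Deeper cells had relatively more *Pkm* (log2 ratio of high over low 0.31 in WT and 0.25 in the other library), *Ldha* (0.30 and 0.22), *Pgk1* (0.23 and 0.18) and *Aldoa* (0.19 and 0.21). They had less *Slc2a1* (−0.30 and −0.29). For *Pfkp* (0.26 and 0.31) the intervals of the low and high ranges overlapped and the middle range was the highest, at 19.6 and 23.0 CPM. Over cells, the sum had r of 0.233 and 0.220 with the log of total UMIs. Total UMIs reflect both cell size and capture, which cannot be told apart here.

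The same ranges by the UMIs of 10 G2/M genes differed little in the sum. They also differed in depth, with a median of 48856 total UMIs in the high range and 34734 in the low range of WT. In the S1/5 dKO-labelled library these were 42417 and 30721. The sum of the 10 glycolysis genes was 6986 CPM in the low range and 7092 CPM in the high range of WT (log2 ratio 0.02), and 6644 and 6812 CPM in the S1/5 dKO-labelled library (0.04). *Ldha* had 0.09 and 0.08, and *Slc2a1* −0.22 in WT and 0.05 in the other library, so that its WT value was not seen again. By 10 S-phase genes, the log2 ratios of high over low for the sum were −0.03 in both, with *Gapdh* lower (−0.11 and −0.07) and *Pkm* higher (0.10 and 0.07) in the high range. Cells with a *Nanog* UMI had relatively more *Slc2a3* than cells without, 123 against 107.6 CPM in WT (log2 ratio 0.19) and 118 against 97.4 CPM in the S1/5 dKO-labelled library (0.27), while the sum of the 10 differed by −0.02 in both.

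Cells were also divided by *Sp5*, a target of the Wnt pathway. In the 107 WT cells with a *Sp5* UMI, *Slc2a1* had 186 CPM (161 to 214), against 123 CPM (119 to 128) in the 2086 without. In the S1/5 dKO-labelled library, *Slc2a1* had 226 CPM (207 to 246) in the 233 cells with *Sp5* and 119 CPM (115 to 123) in the 2610 without. The log2 ratios were 0.59 and 0.93. *Pfkp* went the other way, with 6.54 CPM (2.63 to 13.5, 7 UMIs) against 17.7 CPM (15.9 to 19.6) in WT and 10.3 CPM (6.5997 to 15.3, 24 UMIs) against 21.4 CPM (19.7 to 23.3) in the other library. Cells with a *Sp5* UMI thus had more GLUT1 transcript and less of the platelet-type phosphofructokinase in both libraries. A cell without a *Sp5* UMI at this depth may still hold its mRNA, and the part of free RNA in the *Sp5* UMIs was not tested.

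*Eno1* and *Ldha* were also higher in cells with *Sp5*, *Eno1* by a log2 ratio of 0.22 in both libraries and *Ldha* by 0.15 and 0.20. For *Slc2a3* (0.25 and 0.14) and *Pgk1* (0.14 and 0.08) the intervals of cells with and without *Sp5* overlapped in both libraries, and *Aldoa*, *Gapdh* and *Pkm* lay between −0.04 and 0.05. Cells with *Sp5* had a median of 39705 total UMIs in WT, against 38932.5 without, and 32033 against 35193.5 in the S1/5 dKO-labelled library. Divided by *Fgfbp1*, a choice made after its r with *Slc2a1* was seen, *Slc2a1* had 157 CPM (145 to 171) in the 355 WT cells with a UMI and 120 CPM (115 to 126) in the 1838 without, and 178 CPM (166 to 190) and 117 CPM (113 to 122) in the 475 and 2368 cells of the other library. These levels restate that r in the same cells and are no further result. The ratio between the libraries for *Slc2a1* was 0.28 in cells with *Sp5* and −0.05 in cells without, and in both cases the intervals of the libraries overlapped. Cells with a UMI of *Nupr1*, a stress gene, had 30.9 CPM of *Pfkp* in WT (22.7 to 41.1) against 16.1 without (14.4 to 18.0). In the S1/5 dKO-labelled library, *Pfkp* had 22.4 CPM (16.6 to 29.6) in cells with *Nupr1* and 20.4 CPM (18.7 to 22.2) without, intervals that overlapped.

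**Figure D5:**
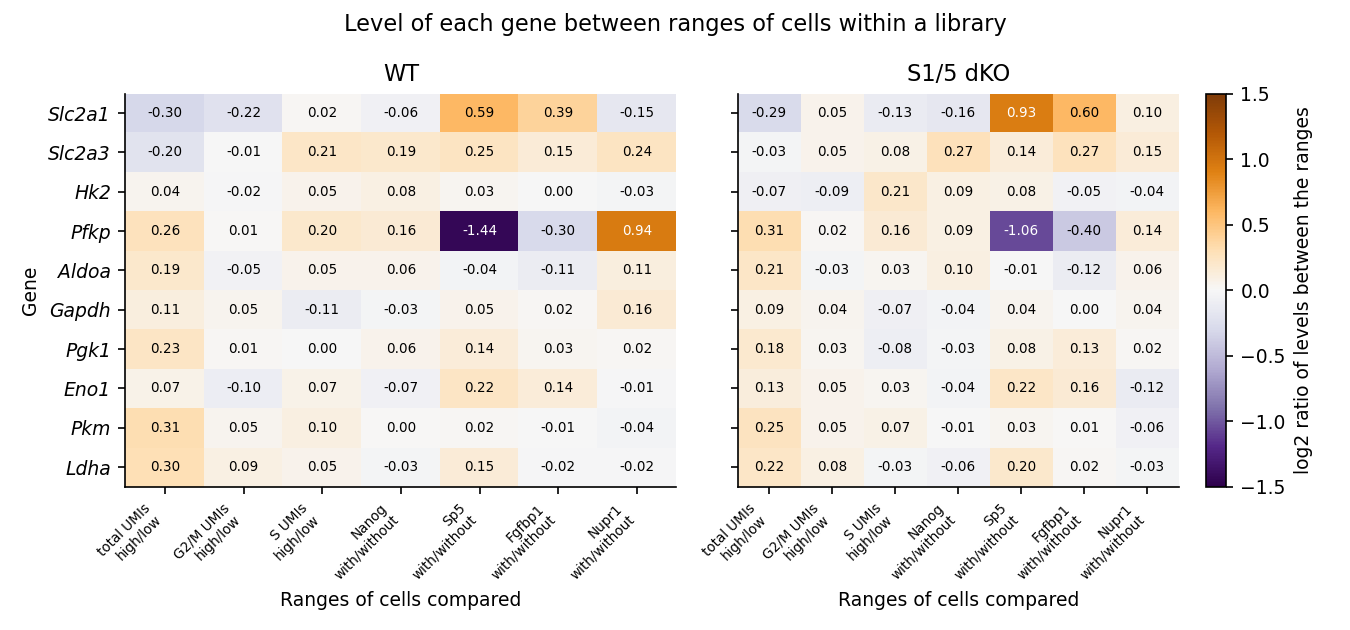
log2 ratio of the level of each gene between ranges of cells within WT (left) and the S1/5 dKO-labelled library (right), at 10000 UMIs per cell: the high over the low range by total, G2/M and S UMIs, and cells with over cells without a UMI of the gene named. *Slc2a1* was higher (0.59 and 0.93) and *Pfkp* lower (−1.44 and −1.06) in cells with *Sp5* in both libraries.

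Other genes of the pathway were compared by list. Of 23 other genes of glucose uptake and glycolysis, 16 had at least 50 UMIs, with a median log2 ratio of 0.06, and 3 of these were higher by 1.2-fold or more on the side of S1/5 dKO and 0 lower, where 9.13% and 11.4% of all genes with that many UMIs were. These were *Eno3* and, with intervals that span 0, *Pfkfb2* (38 and 57 UMIs) and *Eno2* (36 and 51 UMIs). *Pgam1*, the phosphoglycerate mutase that acts just before enolase, had 1242 and 1192 CPM (−0.06), second only to *Gapdh* among the glycolysis genes listed, and *Gpi1*, the isomerase after hexokinase, 173 and 163 CPM (−0.08). *Eno3*, the muscle enolase, had 32.4 CPM in WT and 44.0 CPM in the S1/5 dKO-labelled library, a log2 ratio of 0.44 (0.38 to 0.51), opposite to *Eno1*. *Pfkl* had 43.2 and 38.1 CPM (−0.18), opposite to *Pfkp*.

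Of 16 genes of pyruvate and lactate use, 14 had at least 50 UMIs, 2 were at least 1.2-fold higher and 1 lower, against 9.13% and 11.4% of all genes, so that the count does not set this list apart. The higher ones were *Pdk1*, the kinase that holds back pyruvate dehydrogenase, with 34.1 and 45.3 CPM (0.41, 0.35 to 0.47), and *Ldhb* (0.29, 0.27 to 0.32), and the lower one was *Pcx*, pyruvate carboxylase (−0.31). *Pdk1* had r of 0.000078 and −0.031 with the sum of the 10 genes over cells, and *Ldhb* 0.091 and 0.039. Among 7 genes of the pentose phosphate pathway, which branches off after hexokinase, *Pgls* alone was at least 1.2-fold apart, with 311 CPM in WT and 212 CPM in the S1/5 dKO-labelled library (−0.55). *Pgls* lies on chromosome 8 (71592176 to 71601092), as does *Smad1*, and whether its position has a part in this ratio was not tested. Of 6 genes of gluconeogenesis, 4 had at least 50 UMIs, and 0 of these were 1.2-fold apart.

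Known regulators and other hypoxia targets were counted in the same way, and against the 9.13% higher and 11.4% lower of all genes the counts do not set these lists apart. Of 13 regulators, 0 were at least 1.2-fold apart: *Hif1a* had 46.03 and 46.5 CPM (0.01), *Myc* 34.1 and 33.7 CPM (−0.02) and *Mycn* 83.5 and 74.9 CPM (−0.16, −0.20 to −0.11). Of 17 hypoxia targets other than the 10 with at least 50 UMIs, the median log2 ratio was −0.01, with 1 gene at least 1.2-fold higher (*Car9*, 24 and 39 UMIs) and 1 lower (*P4ha2*). The sum of all 18 listed had a log2 ratio of −0.06 (−0.073 to −0.054), close to that of the 10. *Mif* alone, with a log2 ratio of −0.08, gave 131631 of the 173443 UMIs of this sum in WT, and the sum without it was not taken. Over cells, the summed hypoxia targets had r of 0.194 and 0.218 with the 10 glycolysis genes, but *Mif* gave most of these UMIs, and the median r of the 4 targets abundant enough to measure singly was 0.025 and 0.0026. *Hif1a* itself had r of −0.072 and −0.043, *Myc* −0.021 and 0.013 and *Mycn* 0.0099 and 0.076. The 6 other glycolysis genes abundant enough to measure all had r above 0 in both libraries, as did 33.4% of all genes outside the 10, with a median of 0.080 and 0.065. They ran from *Eno3* (0.041 and 0.044), *Eno1b* (0.0495 and 0.043), *Pfkl* (0.075 and 0.023) and *Gpi1* (0.085 and 0.086) to *Pgam1* (0.151 and 0.195) and *Tpi1*, triosephosphate isomerase (0.164 and 0.134).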

How the data were processed

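The authors aligned reads to mm10 and counted UMIs with Cell Ranger 3.0.2, per the labels, and deposited raw counts of UMIs per gene and barcode, neither normalized nor filtered for cells. All later steps started from these. Cells were filtered at 1000 detected genes and 5% mt- UMIs, and no doublets were removed. UMIs were summed over the cells of each library and divided by its total. Cells were thinned to 10000 UMIs by drawing without replacement (seed 7). Positions are those of GENCODE for GRCm38, and promoters those of RefSeq. Python 3.11.15 with numpy 2.4.6, scipy 1.17.1, pandas 2.3.3 and matplotlib 3.10.9 was used, with edgeR 4.0.16 on R 4.3.3 for TMM scaling only. Intervals, thinning and r were tested on simulated data.

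The members and lists were chosen with earlier results of these data known. The genes named are the 10, those of the lists, *Smad1* and *Smad5*, 5 targets of SMAD1/5 added after seeing the data, the 10 highest and 5 lowest by mean r with the sum of the 10, and the 2 of highest mean r with each gene. Also named is *Sp5*, which is in none of these groups and was used to divide cells. Alternatives were other limits on genes, mt- UMIs and depth, other scalings, per-cell means, other thinning, Spearman's rho and regression on G2/M, S and total UMIs. The r with counting noise taken off, the division of pairs along the pathway and the division of cells by *Fgfbp1* were added after seeing the data.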

Additional observations from a re-analysis of the deposited data

How the results depend on the processing

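Under the 9 alternative settings of cells, scaling and depth, the summed log2 ratio of the 10 genes stayed below 0. It was −0.0515 without cells over 2 times the median UMIs, −0.0471 with TMM scaling, −0.041 with median-of-ratios scaling, −0.0626 with each cell thinned to 10000 UMIs and −0.0664 with totals that leave out mt- and ribosomal protein genes, and the cause of these shifts, all under 0.02, was not tested. In each setting 0 of the 10 genes were at least 1.2-fold apart, and the median log2 ratio lay between −0.019 and 0.011. Moves of single genes were set against the distance from the centre of the counting interval to its end. Of 90 values, 80 moved by no more than this and 10 by more. The furthest was *Slc2a3*, at −0.08 with thinned cells. The share of all genes at least 1.2-fold apart was 20.5% among those with 50 UMIs or more and 4.81% among the fewer genes with 5000 UMIs or more; how much of this was scatter of low counts was not tested. The median r of the 45 pairs lay between 0.0187 and 0.0241 in WT and between 0.0160 and 0.0302 in the library labelled S1/5 dKO under other thinning, cells, rank correlation and regression. It was 0.105 and 0.0942 with counting noise taken off, an alternative chosen after seeing the data; the part of this rise due to unstable pairs of low counts was not tested. With 1 library per genotype, the spread between cultures is unknown, and *Pfkp*, at 1691 and 2214 UMIs, has the widest interval.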
